A study of Mus musculus with 10 samples.

Results

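The acute-phase proteins examined here are 7 secreted proteins of inflammation encoded by Saa1, Saa2, Saa3, Lcn2, Lrg1, Lbp and Hp. All probe sets of the array annotated to 1 of these genes alone were taken, which gave 9 probe sets for the 7 genes, among 34945 probe sets with a single gene and 18193 genes in all. Saa1 and Lbp had a pair of probe sets each, the other genes 1 each, and the annotation lists no further probe set that joins a member with another gene. Acute-phase proteins are plasma proteins whose synthesis changes quickly after injury or infection. The liver makes most of the circulating pool under the control of interleukin 6 and interleukin 1, through STAT3, C/EBP factors and NF-kappa B, and epithelial cells, macrophages, neutrophils and adipocytes make some of them locally. In the gut, lipocalin 2 and serum amyloid A are used as signs of active colitis.

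Expression was measured on 1 Affymetrix 3′ expression array per mouse in the distal colon of 10 C57BL/6 mice with or without colitis after transfer of T cells (TCT). Severely inflamed colons (n = 3) and moderately inflamed colons (n = 3) came from Rag1-/- mice injected with naïve T cells, and non-inflamed control colons (n = 4) came from Rag1-/- mice injected with regulatory T cells (Tregs). All mice received their cells at 10 weeks of age, were killed 2 to 3 months later and were 4 to 5 months old. No array came from an uninjected mouse, and every host lacked T and B cells of its own, so inflamed and control colons differ in the T-cell population that was transferred. The sources used here do not say how a colon was graded as severe or moderate. Levels are given on the log2 scale, on which a difference of 1 is 2-fold. Array medians lay between 5.36 and 5.40, lower quartiles between 3.82 and 3.92 and the brightest probe sets between 14.4 and 14.6. With 10 arrays, precision is limited by their number. The tissue carried its label: the mean level of 10 epithelial markers was 12.71 to 12.97 in inflamed and 12.62 to 12.72 in control colons, and that of 10 hepatocyte markers was 4.74 to 5.10 in inflamed and 4.99 to 5.16 in control colons. The tissue was whole colon, so a change in the number of cells of a type and a change in RNA per cell cannot be told apart.

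Inflamed colons held far more Saa3, Lcn2, Lrg1 and Hp transcript than control colons, while the serum amyloid genes Saa1 and Saa2 were already well expressed in control colon and showed no rise that passed the test. In the comparison of the 6 inflamed with the 4 control colons, 4 of the 7 genes were higher and 0 were lower at an adjusted p under 0.05 (two-sided test of limma, adjusted by Benjamini-Hochberg over all genes), where 18.5% of all genes tested were higher and 21.2% were lower. The same 4 genes lay above every control colon in each of the 6 inflamed colons, as did 14.6% of all genes. The rises were 56.8-fold for Lrg1, 37.6-fold for Saa3, 11.7-fold for Hp and 7.03-fold for Lcn2. Lbp was higher than control in severe colons but did not pass over all inflamed colons.

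**Figure D1:**
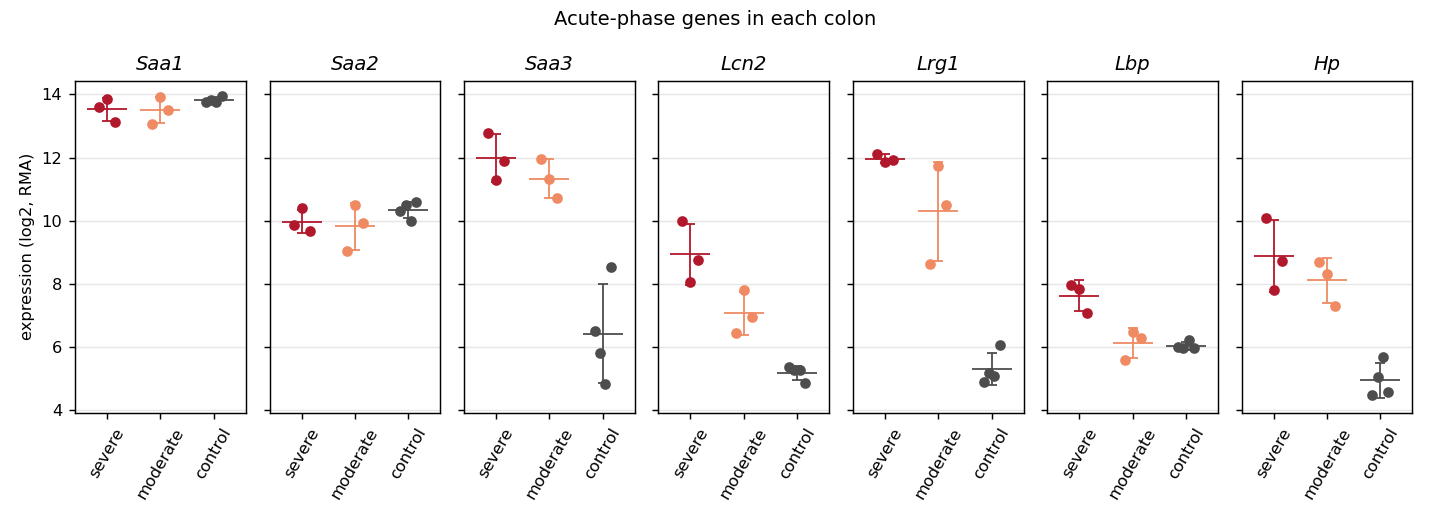
Log2 expression (vertical axis) of the 7 acute-phase genes in severe (n = 3), moderate (n = 3) and control (n = 4) colons. Points are single mice, the horizontal mark is the group mean and the whiskers are 1 SD. Saa3, Lcn2, Lrg1 and Hp lay above every control colon in all 6 inflamed colons, Lbp in the 3 severe and in 2 of the 3 moderate colons, and Saa1 and Saa2 overlapped with control.

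The serum amyloid A proteins are small apolipoproteins of high-density lipoprotein. In mouse, SAA1 and SAA2 are the main circulating forms, and SAA3 is made mainly outside the liver. The RefSeq gene table (GRCm38.p6) places Saa3, Saa4, Saa1 and Saa2 next to each other, in this order, on chromosome 7. Saa3 stood at 12.79, 11.29 and 11.88 in severe colons and at 11.96, 11.31 and 10.72 in moderate colons, against 6.51, 5.81, 4.84 and 8.55 in control colons. Every inflamed colon was above every control colon, and the controls differed from each other more (SD 1.57) than the inflamed colons did (SD 0.72). The log2 difference between inflamed and control was 5.23 (SE 0.60, adjusted p = 4.54e-05, limma), and it was 5.94 without control replicate 4, the highest control. The size of the fold change therefore depends on that one mouse, although the call does not.

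Saa1 gave one of the brightest signals of the arrays in all 3 groups. Its values were 13.60, 13.86 and 13.12 in severe colons and 13.07, 13.91 and 13.51 in moderate colons, against 13.75, 13.83, 13.75 and 13.95 in control colons. The groups overlapped, and the control colons were close together while the inflamed colons spread downward. The difference of -0.31 (95% confidence interval -0.66 to 0.05) did not pass the test (adjusted p = 0.158, limma). These values lie near the top of the array's range, and whether that limited the reading was not tested.

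Saa2 was measured at a lower brightness, well below that range. It read 9.85, 10.39 and 9.67 in severe colons and 9.04, 10.50 and 9.93 in moderate colons, against 10.30, 10.49, 10.00 and 10.59 in control colons. Its difference of -0.45 (95% confidence interval -0.99 to 0.09) also did not pass (adjusted p = 0.175, limma), and moderate replicate 1 was the lowest colon for both genes. The second probe set annotated to Saa1 refers to a transcript that the RefSeq gene table assigns to Saa2, and it read 13.23, 13.79 and 12.86 in severe colons and 12.63, 13.83 and 13.36 in moderate colons, against 13.67, 13.83, 13.70 and 13.94 in control colons. It differed by -0.50 (adjusted p = 0.0852 over all probe sets, limma). By the naming of the array, this probe set (suffix _s_at) and that of Saa2 (suffix _x_at) may match more than 1 transcript. The signals of Saa1 and Saa2 can therefore not be told apart with certainty, but none of the 3 probe sets passed as higher in inflamed colon, where 16.5% of all probe sets did.

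The stretches of DNA just before the start sites show how alike Saa1 and Saa2 are and how far Saa3 departs from them. Their part in the response was not tested. RefSeq promoter sequences (build GRCm38.p6) were matched for 5 of the 7 genes, and the 250 bases before each start are printed 5′ to 3′ on the strand of the gene. Capitals mark the core TTGCNNAA recognised by C/EBP factors, searched on both strands.
Saa3, chr7:46715677-46715926, minus strand: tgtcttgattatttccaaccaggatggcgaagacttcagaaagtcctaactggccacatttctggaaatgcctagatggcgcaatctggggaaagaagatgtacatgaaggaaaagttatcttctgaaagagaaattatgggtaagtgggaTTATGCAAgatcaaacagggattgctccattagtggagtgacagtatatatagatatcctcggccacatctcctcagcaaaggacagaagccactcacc
Saa1, chr7:46742981-46743230, minus strand: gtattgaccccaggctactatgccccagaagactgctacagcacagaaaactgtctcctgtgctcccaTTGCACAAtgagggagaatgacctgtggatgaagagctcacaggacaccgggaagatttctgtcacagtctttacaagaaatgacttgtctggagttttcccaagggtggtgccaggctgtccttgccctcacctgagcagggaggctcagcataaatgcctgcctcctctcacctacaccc
Saa2, chr7:46751583-46751832, plus strand: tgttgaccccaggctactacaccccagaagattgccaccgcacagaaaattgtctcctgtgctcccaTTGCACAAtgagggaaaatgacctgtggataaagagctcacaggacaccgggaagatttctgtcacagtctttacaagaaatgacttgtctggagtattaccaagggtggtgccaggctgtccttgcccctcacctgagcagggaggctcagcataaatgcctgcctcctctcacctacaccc
Lcn2, chr2:32387740-32387989, minus strand: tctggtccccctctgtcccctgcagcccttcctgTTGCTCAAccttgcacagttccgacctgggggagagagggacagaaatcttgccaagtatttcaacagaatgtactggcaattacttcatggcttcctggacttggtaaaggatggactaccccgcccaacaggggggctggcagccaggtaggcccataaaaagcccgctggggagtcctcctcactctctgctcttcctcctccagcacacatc
Lrg1, chr17:56121947-56122196, minus strand: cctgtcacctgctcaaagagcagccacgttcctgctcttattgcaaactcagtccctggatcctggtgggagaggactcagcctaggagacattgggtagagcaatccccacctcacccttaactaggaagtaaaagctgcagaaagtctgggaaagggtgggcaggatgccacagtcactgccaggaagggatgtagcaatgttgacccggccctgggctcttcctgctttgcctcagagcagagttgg
In a global alignment Saa1 and Saa2 shared 94.8% of 251 positions. Saa3 shared 52.2% of positions with Saa1 and 52.4% with Saa2, within the 49.5% to 54.5% found for the other pairs. The C/EBP core was present once in 4 of the 5 windows and in 9.56% of 32851 windows of the same length. It lay 182 bases before the start in Saa1 and 183 in Saa2, genes that did not pass the test, and 99 bases before the start in Saa3 and 216 in Lcn2, genes that rose. A STAT palindrome (TTCNNNGAA, in 7.02% of all windows), an AP-1 site (TGANTCA, in 6.75%) and a kappa B site (in 7.25%) had no match in the 5 windows. No match overlapped another motif. A match is a run of letters and says nothing of binding.

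Lipocalin 2, encoded by Lcn2, binds bacterial siderophores and so keeps iron from bacteria, and it is made by neutrophils and by inflamed epithelium. Lcn2 stood at 9.98, 8.06 and 8.77 in severe colons and at 6.46, 7.81 and 6.95 in moderate colons, against 5.36, 5.26, 5.27 and 4.87 in control colons. The 3 groups did not overlap: every severe colon was above every moderate colon, and every moderate colon above every control colon. The control values sat close to or below the array medians. The difference was 2.81 between inflamed and control (SE 0.55, adjusted p = 0.00155, limma), 3.75 between severe and control and 1.88 between moderate and control.

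Leucine-rich alpha-2 glycoprotein 1, encoded by Lrg1, modifies TGF-beta signaling in endothelial cells and is stored in neutrophil granules. Lrg1 had values of 12.11, 11.86 and 11.93 in severe colons and 8.64, 11.73 and 10.51 in moderate colons, against 4.90, 5.18, 5.07 and 6.06 in control colons. The severe colons were nearly alike (SD 0.13), whereas the moderate colons spread widely (SD 1.56), and all were above control. The difference between inflamed and control was 5.83 (SE 0.60, adjusted p = 2.20e-05, limma), the largest of the 7 genes but not shown to exceed that of Saa3. It was 101-fold higher in severe and 31.8-fold higher in moderate than in control colons. The log2 difference between moderate and control, 4.99, was 5.82 without moderate replicate 1 and 4.27 without moderate replicate 2.

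Haptoglobin, encoded by Hp, captures free hemoglobin. Hp read 10.09, 7.81 and 8.72 in severe colons and 8.70, 8.32 and 7.31 in moderate colons, against 4.49, 5.05, 5.67 and 4.56 in control colons. All inflamed colons were above all control colons, and the severe and moderate colons were interleaved. The difference from control was 3.55 (SE 0.45, adjusted p = 8.02e-05, limma).

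Lipopolysaccharide-binding protein, encoded by Lbp, hands bacterial lipopolysaccharide to CD14. Lbp stood at 7.96, 7.85 and 7.08 in severe colons and at 5.57, 6.48 and 6.30 in moderate colons, against 6.00, 5.97, 6.23 and 5.96 in control colons. The severe colons stood apart. Of the moderate colons, 2 lay just above the highest control and moderate 1 lay below all controls. The difference of 0.83 between all inflamed and control colons did not pass (95% confidence interval -0.05 to 1.71, adjusted p = 0.124, limma). In a model in which severe and moderate were separate groups, the same 0.83 did pass (adjusted p = 0.0072). A second, dimmer probe set read 5.54, 5.43 and 5.49 in severe colons and 5.32, 5.31 and 5.26 in moderate colons, against 5.16, 5.26, 5.24 and 5.09 in control colons. It was also higher in severe than in control colons, by 0.30 (adjusted p = 0.0113 over all probe sets, limma), as were 14.2% of all probe sets.

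Each grade of inflammation was then set against control, to ask whether the response was present at both. In severe colons 5 of the 7 genes were higher than in control and 0 were lower, where 16.1% of all genes were higher and 18.9% lower. The same 5 lay above every control in all 3 severe colons, as did 21.6% of all genes. In moderate colons 4 of the 7 were higher and 0 were lower, where 13.2% of all genes were higher and 16.7% lower. These 4 lay above every control in all 3 moderate colons, as did 18.4% of all genes. These comparisons share their control colons. Lbp was 3.01-fold higher in severe colons (log2 difference 1.59, SE 0.24, adjusted p = 0.000483) and differed by 0.08 in moderate colons (95% confidence interval -0.45 to 0.60, adjusted p = 0.847). Saa3 was higher by 5.56 in severe and by 4.90 in moderate colons, and Hp by 3.93 in severe and by 3.17 in moderate colons. Without control replicate 4 the values of Saa3 were 6.27 in severe and 5.61 in moderate colons, and without severe replicate 1 that of Hp was 3.33 in severe colons. With its probe sets averaged, Lbp was higher by 0.95 in severe colons. Saa1 and Saa2 did not pass at either grade, with differences from -0.52 to -0.30 and adjusted p from 0.225 to 0.381 (limma).

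**Figure D2:**
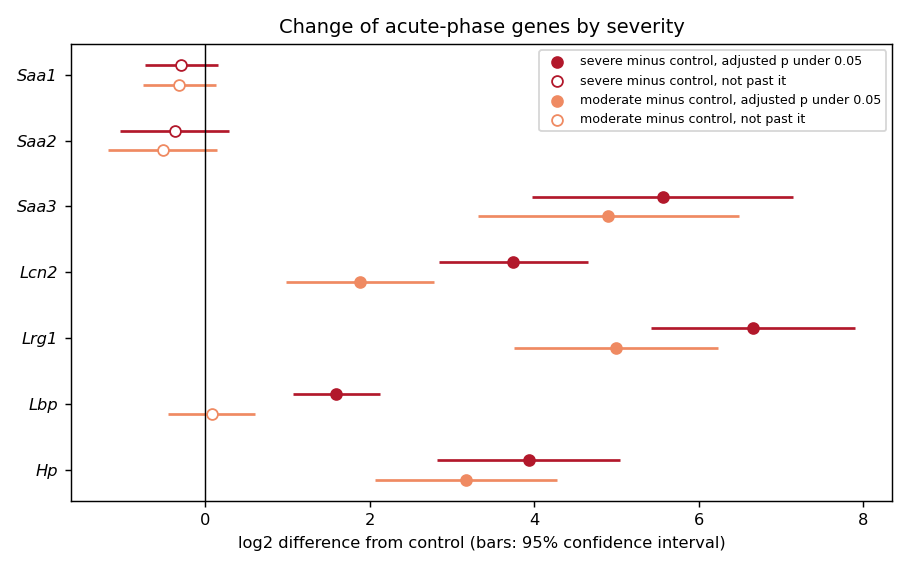
Log2 difference from control (horizontal axis) of each acute-phase gene in severe and in moderate colons, with 95% confidence intervals from limma. Filled points passed an adjusted p of 0.05. For Lbp the severe point is at 1.59 and the moderate point at 0.08, and for Lcn2 they are at 3.75 and 1.88.

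The difference between the grades was tested directly, and no gene passed over all 18193 genes (limma, 0%, with 922 genes or 5.07% at an unadjusted p under 0.05; the methods' t-test with the same adjustment also gave 0). Among the 7 genes, Lcn2, Lrg1 and Lbp were higher in every severe than in every moderate colon, as were 3.81% of all genes. The difference between severe and moderate was 1.86 for Lcn2 (95% confidence interval 0.90 to 2.83, adjusted p = 0.707), 1.67 for Lrg1 (0.35 to 3.00, adjusted p = 0.919) and 1.51 for Lbp (0.95 to 2.08, adjusted p = 0.347). It was 0.76 for Hp (-0.42 to 1.95) and 0.66 for Saa3 (-1.04 to 2.35), whose groups overlapped. Single colons carried much of these values: Lrg1 stood at 0.85 without moderate replicate 1 and 2.39 without moderate replicate 2, and Hp at 0.16 without severe replicate 1. Lbp stood at 0.85 when its probe sets were averaged. With 3 against 3 colons an exact permutation test cannot go below 0.1. The separation of the grades by these 3 genes is thus a description of these 6 mice.

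The 6 inflamed colons kept the same order for Lcn2 and Lrg1, with severe replicate 1 highest, then severe 3, severe 2, moderate 2, moderate 3 and moderate 1. This order was found for 30 of 18193 genes (0.165%), those 2 included. Lbp differed from it only in that severe 2 was above severe 3. Saa3 and Hp had another order, with severe 1 highest, moderate 3 lowest and severe 2 next to lowest. Moderate replicate 1, the lowest colon for Lcn2, Lrg1 and Lbp, was the colon with the second highest value of Saa3 and the third highest of Hp. Saa1 and Saa2 were both highest in moderate 2 and lowest in moderate 1.

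Markers of several cell types also differed between inflamed and control colon. The counts below stand beside 18.5% of all genes higher and 21.2% lower. Of 11 neutrophil markers measured 8 were higher in inflamed colon and 0 were lower (5 were higher without control replicate 4), among them S100a8 by 7.66 (8.32 without control replicate 1) and S100a9 by 6.34, while Mpo (0.10) and Elane (-0.10) did not pass. The mean level of these markers was 7.20 to 8.20 in severe, 6.51 to 7.34 in moderate and 4.80 to 5.31 in control colons. Moderate 2 was the highest of the moderate colons in this list, as it was for Lcn2, Lrg1 and Lbp. It was also the highest moderate colon in the epithelial list (12.88, against 12.85 and 12.86) and the adipocyte list (5.33, against 5.12 and 5.24). Of 11 macrophage and monocyte markers 10 were higher and 0 lower, led by Lyz2 (2.51) and Ccr2 (2.36, and 1.09 when its probe sets were averaged), with a mean level of 8.34 to 9.68 in severe and 8.09 to 9.07 in moderate colons, against 7.07 to 7.29 in control colons. All 6 T-cell markers measured were higher, led by Cd3g (4.36) and Cd3d (2.48), at a mean level of 6.09 to 7.05 in inflamed and 4.76 to 4.86 in control colons. Moderate 1 was the highest of the moderate colons in the macrophage, T-cell, smooth muscle and red blood cell lists, as it was for Saa3 and Hp. Some markers of resident cells differed as well. All 8 smooth muscle markers were lower (Myh11 by 2.27, or 1.56 when its probe sets were averaged, and Synpo2 by 2.03 on the log2 scale), at a mean level of 9.26 to 10.09 in inflamed and 11.08 to 11.46 in control colons. Of 8 endothelial markers 5 were lower and 0 higher (Tek fell by 1.67 and Emcn by 1.59), at 5.27 to 5.84 in inflamed and 5.99 to 6.32 in control colons. Of 8 fibroblast markers 3 were lower (Lum fell by 1.77 and Dcn by 1.12, or 0.51 when its probe sets were averaged) and 1 was higher (Thy1 by 0.81), at 8.71 to 10.07 in inflamed and 9.34 to 9.65 in control colons. Of 10 epithelial markers 4 were higher, led by Krt20 (0.57) and Elf3 (0.38), and 0 were lower. Of 6 adipocyte markers 2 were lower, among them Pck1, an enzyme that other cells also make, which fell by 3.44 (1.61 when its probe sets were averaged), at 5.12 to 5.33 in inflamed and 5.68 to 6.55 in control colons. Of 3 red blood cell markers 0 passed. The part of these cell types in the levels of the acute-phase genes was not tested.

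**Figure D3:**
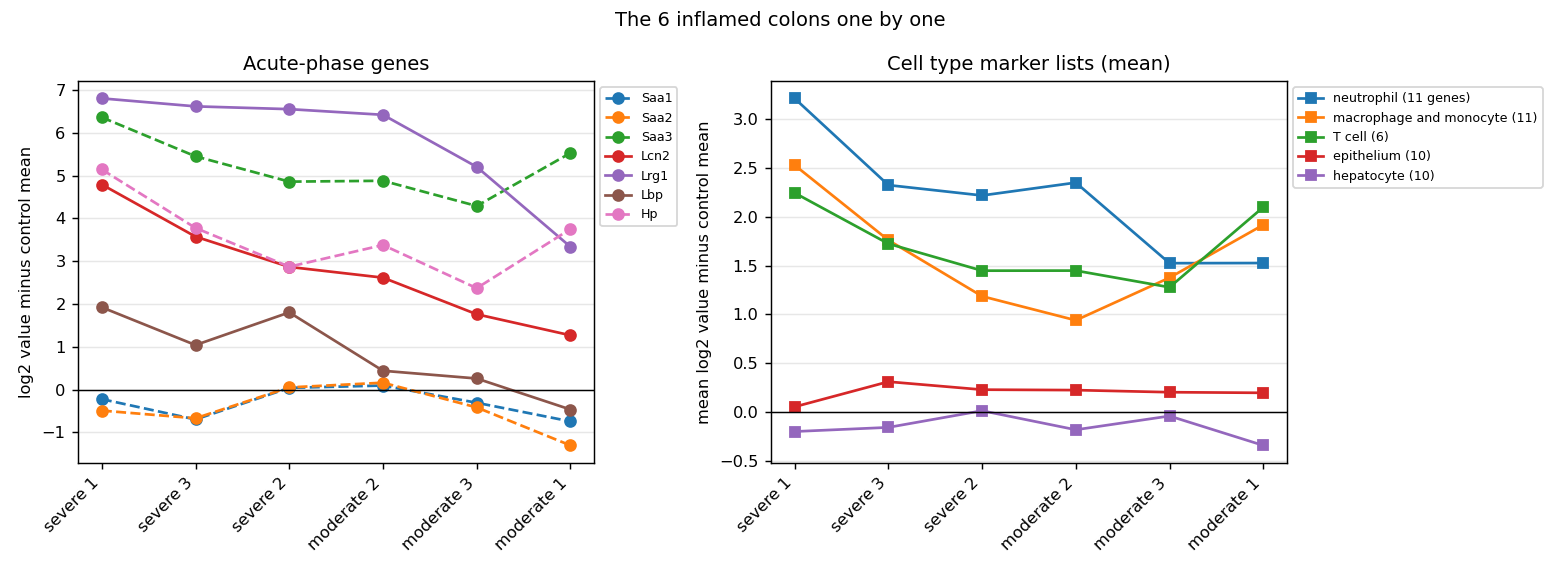
Left, log2 value minus the control mean (vertical axis) of each acute-phase gene in the 6 inflamed colons. Right, the mean of each cell type marker list on the same scale. Colons are arranged from the highest to the lowest value of Lcn2, an order that Lrg1 shared. Lines are solid for Lcn2, Lrg1 and Lbp and dashed for the other genes. Of the dashed lines, Saa3 and Hp were higher in moderate 1 than in moderate 2 and 3, while Saa1 and Saa2 were lowest in moderate 1.

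The sizes of the rises were compared between genes within each colon, by an exact permutation test of all 210 splits of 6 against 4 arrays on the difference between a pair of genes (two-sided, smallest possible p 0.00476). Of 21 pairs, 17 differed at an adjusted p under 0.05 over the pairs. Saa3 rose by 5.54 more than Saa1 (exact p = 0.00476, adjusted p = 0.00833), its neighbor but 1 on the chromosome, with no overlap between groups. Saa1 read near the top of the array's range, and whether that limited its pair differences was not tested. Each gene was read by its own probe set, so these are differences between probe-set readings. Whether probe sets respond alike to the same change in RNA was not tested. Lrg1 rose by 3.01 more than Lcn2 (exact p = 0.00476, adjusted p = 0.00833), and Saa3 by 2.42 more than Lcn2 (exact p = 0.0238, adjusted p = 0.0357). The rises of Saa3 and Lrg1 (difference -0.60, exact p = 0.51), Lcn2 and Hp (-0.74, exact p = 0.171, adjusted p = 0.189), Saa3 and Hp (1.68, exact p = 0.0571, adjusted p = 0.0667) and Saa1 and Saa2 (0.14, exact p = 0.386, adjusted p = 0.405) were not shown to differ. Between 14 and 17 pairs passed when single colons were left out.

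Few other acute-phase genes moved with the 4 that rose. A further list held positive acute-phase genes, not all of which encode plasma proteins. Serpina1a, Serpina3c, Serpina3m, C3 and C4b were on it but had no value among the genes tested. Of 25 measured, 5 were higher in inflamed colon (8 without moderate replicate 3), 1 was lower and 19 did not pass. The share that was higher is near the 18.5% of all genes that were higher. The median log2 difference was 0.19, beside 0.03 over all genes. Those that rose were Steap4, a metalloreductase, by 3.28 (adjusted p = 6.79e-05; 2.12 when its probe sets were averaged), Cp, the copper carrier ceruloplasmin, by 1.71 (adjusted p = 0.000915; 1.08 when averaged), the metallothionein Mt2 by 1.03, the interleukin 1 receptor antagonist Il1rn by 1.0 and the protease inhibitor Serpina3n by 0.82 (adjusted p = 0.0445). The fibrinogen-like protein Fgl1 fell by 0.66 (adjusted p = 0.0163, limma throughout). Saa4 differed by 0.26 (adjusted p = 0.188). Orm1, Orm2, Crp, Fga, Fgg, Itih3 and Mbl2, classical liver products, were below the lower quartile of every array, where a difference is uncertain. Of 9 negative acute-phase proteins, which fall in plasma during inflammation, 2 were lower and 0 higher, a share near the 21.2% of all genes that were lower. Ttr, the thyroxine carrier transthyretin, stood at 8.78, 8.29 and 8.23 in severe colons and at 8.64, 8.81 and 8.95 in moderate colons, against 9.98, 11.32, 10.79 and 10.48 in control colons. It fell by 2.03 (adjusted p = 3.95e-05), with no overlap, and Alb, serum albumin, fell by 0.70, at a mean of 4.70 in inflamed and 5.40 in control colons. Of the 10 hepatocyte markers, 0 were higher and 2 lower (Cps1, also an intestinal enzyme, by 1.99, and Alb).

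**Figure D4:**
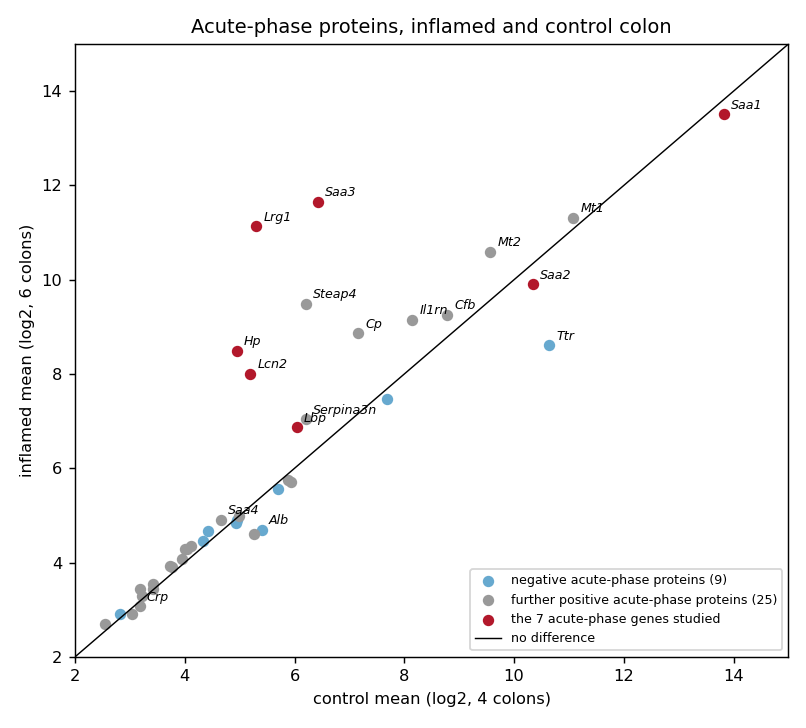
Mean log2 expression in inflamed colon (vertical axis, n = 6) against control colon (horizontal axis, n = 4). Points are the 7 acute-phase genes studied and 25 further positive and 9 negative acute-phase genes. The line marks equal levels. Lrg1, Saa3, Hp, Steap4 and Lcn2 lie farthest above it, Saa1 and Saa2 just below it, and Ttr farthest below it.

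Most of the cytokines that induce acute-phase genes, and of related ligands, were higher. Il22 and Il17f were on the list but had no value among the genes tested. Of 11 measured, 8 were higher in inflamed colon, 0 were lower and the median difference was 1.42. Over all genes, 18.5% were higher, 21.2% were lower and the median was 0.03. Ifng, encoding interferon gamma, rose by 3.73 (adjusted p = 1.27e-06) and Il1b, encoding interleukin 1 beta, by 3.52 (adjusted p = 3.31e-05). Il6 stood at 7.0, 4.31 and 4.08 in severe colons and at 3.70, 7.14 and 4.56 in moderate colons, against 2.61, 2.90, 2.80 and 2.92 in control colons. Every inflamed colon was above every control colon, and severe 1 and moderate 2 stood well above the other inflamed colons. The difference was 2.32. The control values of Il6 and Ifng lay below the lower quartile of their arrays, as did Il6 in moderate 1. The sizes of both rises are therefore uncertain. Tnf, Il1a, Lif, Osm and Il17a also rose, by 1.84, 1.64, 1.42, 0.86 and 0.52. Il11 (0.67, adjusted p = 0.053), Csf3 and Clcf1 did not pass.

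Of 13 receptors for these cytokines, 4 were higher and 1 was lower, with a median of 0.16. For this list and the next, the share over all genes was 18.5% higher and 21.2% lower. Tnfrsf1b, a receptor for tumor necrosis factor, rose by 2.70 and Osmr, the oncostatin M receptor, by 2.26, while Il1rap, a coreceptor for interleukin 1, fell by 1.29 (adjusted p = 5.83e-05). When the probe sets of each gene were averaged, the rises were 1.51 for Tnfrsf1b and 1.14 for Osmr, and Il1rap fell by 0.34. All 3 calls held. Of 16 signal transducers and transcription factors, 10 were higher and 1 was lower, with a median of 0.50. Socs3, a feedback inhibitor induced by STAT3, stood at 12.18, 12.25 and 12.06 in severe colons and at 10.53, 11.84 and 11.42 in moderate colons, against 7.40, 7.26, 6.86 and 9.14 in control colons. It rose by 4.05 (adjusted p = 2.94e-05). Its severe colons were above its moderate colons and moderate 1 was the lowest inflamed colon, as for Lcn2 and Lrg1. The kinase Pim1 rose by 2.20 and the C/EBP factor Cebpb by 1.68, whereas Cebpd differed by 0.32 (not passed) and Stat3 rose by 0.35. Jak1 fell by 0.36 (adjusted p = 0.00716), a call that was lost when its probe sets were averaged (-0.14, adjusted p = 0.137).

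**Figure D5:**
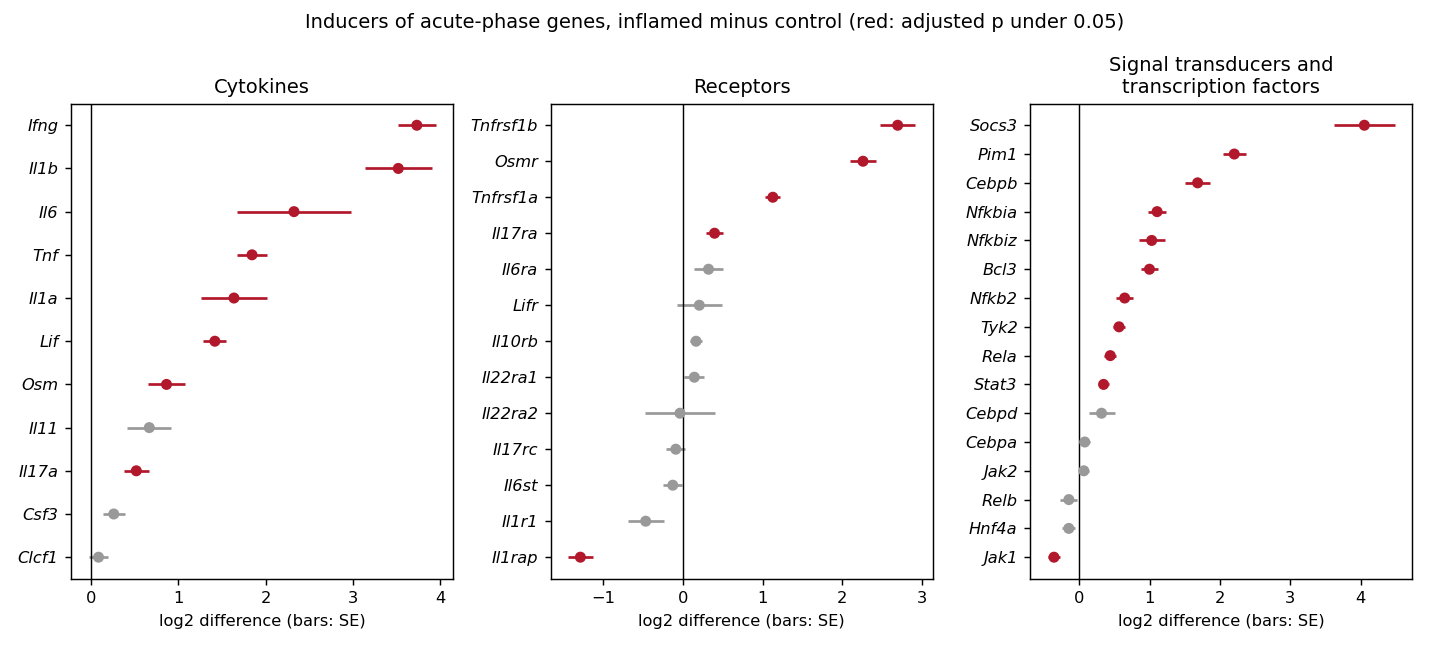
Log2 difference between inflamed and control colon (horizontal axis, bars are SE) of cytokines, receptors, and signal transducers and transcription factors of acute-phase genes. Red points passed an adjusted p of 0.05 in limma. Socs3 at 4.05, Ifng at 3.73 and Il1b at 3.52 are the largest rises.

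Control replicate 4 was the highest control colon for Saa3 (8.55), Lrg1 (6.06) and Socs3 (9.14). It was the highest control for 2 of the 4 acute-phase genes that rose, for 4 of the 8 cytokines and for 7 of the 10 signal transducers and transcription factors that rose, beside 1036 of 3372 genes that rose in all (30.7%). For Lcn2 it was the lowest control. The differences of Saa3, Lrg1, Lcn2 and Hp passed without it.

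Genes that act with each protein changed unevenly, beside 18.5% of all genes higher and 21.2% lower. Of 8 receptors and binding partners of serum amyloid A, 4 were higher and 1 lower (median 0.36): Fpr2, a formyl peptide receptor of myeloid cells, rose by 4.86 (adjusted p = 4.61e-06), Tlr2 by 1.16, Tlr4 by 0.75 and Ager by 0.44, and the scavenger receptor Cd36 fell by 1.55. Of 6 partners of Lbp in the sensing of lipopolysaccharide, 5 were higher and 0 lower (median 0.72), with Cd14 up by 1.5 and the adaptor Myd88 by 0.81. Of 6 partners of Lcn2 and other iron-withholding proteins, 3 were higher and 0 lower (median 0.82). These were Ltf, the iron binder lactoferrin of neutrophil granules, by 3.07, Mmp9, a protease that forms a complex with lipocalin 2, by 2.07 and the metal transporter Slc11a1 by 1.61. The lipocalin 2 receptor Slc22a17 differed by -0.24 (adjusted p = 0.0596).

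The partners of Hp in hemoglobin clearance moved in both directions. Of 8 genes, 1 was higher and 3 were lower (median -0.10), beside 18.5% of all genes higher and 21.2% lower, and 1 was lower without moderate replicate 2 or without control replicate 2, 3 or 4. Hmox1, which degrades heme, rose by 0.95, the iron exporter Slc40a1 fell by 1.08, and Blvrb and Fth1 fell by 0.34 and 0.20. Cd163, the receptor for haptoglobin and hemoglobin, differed by -1.11 and did not pass (adjusted p = 0.144). Of 8 genes of the TGF-beta pathway through which LRG1 acts, 1 was higher (Tgfb1, by 0.43) and 1 was lower (Smad5, by 0.43 on the log2 scale), with a median of 0.09. The coreceptor Eng, to which LRG1 binds, differed by 0.10 (adjusted p = 0.389).

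The genes most like each acute-phase gene were sought by the root mean squared difference of control-centred log2 values over the 10 arrays. For Lrg1 these were the neutrophil-attracting chemokines Cxcl3 (0.52), Cxcl2 (0.54) and Cxcl5 (0.74), with rises of 5.52, 5.61 and 6.65. For Lcn2 they were the chemokine Cxcl1 (0.44), Bcl2l15 (0.52) and the metalloproteinase Mmp10 (0.59). Hp was nearest to Wfdc21 (0.33), Tnfsf11 (0.46) and the C-type lectin Clec4n (0.47), and Saa3 to the tryptophan-degrading enzyme Ido1 (0.71), the chemokine Ccl5 (0.83) and Ms4a4b (0.91). Lbp was nearest to Spry4 (0.43), Bmper (0.43) and Samd5 (0.44). Saa2 was nearest to Saa1 (0.23), Rdh9 (0.24) and Plce1 (0.24), and Saa1 to Cryz (0.15), Prss32 (0.16) and 1700096K18Rik (0.17). Smaller distances are found for genes that change little, so the distances rank genes for 1 member and not between members.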

How the data were processed

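RNA of 10 distal colons was hybridised to Affymetrix mouse 3′ expression arrays. For extraction the labels name Trizol and the methods a Qiagen kit. The deposited log2 values were made by the authors with Affymetrix Expression Console and RMA (versions not given in the sources used here), which corrects background and gives all arrays 1 distribution. Neither scan dates nor detection calls entered.

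Of 45101 probe sets, 932 with several genes, 9160 without a gene and 64 controls were left out. Each gene took its brightest probe set by mean. limma 3.58.1 in R 4.3.3 (lmFit, eBayes, two-sided, Benjamini-Hochberg over 18193 genes, threshold 0.05) compared inflamed with control (2 groups) and the grades with control and each other (3 groups, 1 spread). Gene pairs were compared by exact permutation in Python 3.11.15. The limma tests were checked on simulated data. They recovered 55.2% of changes of 0.5 on the log2 scale between inflamed and control. For severe and for moderate against control they recovered 38.8% and 35.8%. Of changes of 2, they recovered 100%, 98.5% and 95.5%. Differences of 0.5 or less can therefore be missed. The label source gives biological replicates, numbered within groups.

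The text names all 7 genes, the 2 largest rises and falls of each other list past the threshold with no overlap, and 3 nearest profiles per gene (12992 genes with a mean of at least 5 in a group). Other list members, chosen after their values were seen, are named to account for a list. Members and lists were chosen with earlier results of these data known. Alternatives were the value per gene, a filter on dim genes, array scaling, the variance model, weights per array, the model, the methods' t-test, a replicate block and each array left out.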

Additional observations from a re-analysis of the deposited data

How the results depend on the processing

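Of the 546 refits of the 7 acute-phase genes in a comparison, 535 kept their direction and side of the threshold. Between inflamed and control colon, Saa3, Lcn2, Lrg1 and Hp passed under all 12 other settings and with each array left out, at 4.70 to 5.94, 2.42 to 3.12, 5.63 to 6.32 and 3.23 to 3.79 with 1 array left out. Lbp passed in the model of 3 groups (0.83, adjusted p = 0.0072) and without moderate replicate 1 (1.09, adjusted p = 0.0202), and ranged from 0.61 to 1.09 with 1 array left out. Saa2 became lower in moderate than in control colon without moderate replicate 2 (1 gene called lower, -0.86, adjusted p = 0.0408), and the range with 1 array left out was 0 to 1. Values near 0 changed sign without a call: Lbp between moderate and control was -0.10 without moderate replicate 2 and -0.01 without moderate replicate 3 (range -0.10 to 0.35), Saa1 between severe and moderate was -0.10 with array weights, -0.01 and -0.14 without severe replicates 1 and 2 and -0.19 without moderate replicate 1 (range -0.19 to 0.23), and Saa2 was -0.06 without severe replicate 2 and -0.24 without moderate replicate 1 (range -0.24 to 0.49). The cause was not tested. With every probe set tested on its own, 12522 probe sets were called between inflamed and control, 10898 between severe and control and 9308 between moderate and control, against 7222, 6366 and 5447 genes, because more features were tested. Between severe and moderate, 5 genes passed without severe replicate 2, 1 without moderate replicate 1 and 20 without moderate replicate 2, a range of 0 to 20, none of them among the 7 acute-phase genes. The labels number replicates within groups and name no pairs of mice. Correlations of deviations were -0.0778 to 0.293 for 9 pairs with 1 number and -0.311 to 0.169 for 24 pairs with different numbers. The highest were severe 1 with moderate 1 (0.293) and severe 2 with moderate 2 (0.254), so a link by number was not settled. With the replicate block, control replicate 4 stood alone and 6625 genes passed between inflamed and control. Among them were 4 acute-phase genes (Lcn2 at 2.71, adjusted p = 0.0151, limma). In the other comparisons 5823, 4831 and 0 genes passed. Among the gene lists named in the report, the receptors and the TGF-beta genes each had 2 members lower in inflamed colon without severe replicate 1 and the signal transducers 2 without moderate replicate 1, in place of 1. Values below the lower quartile of the arrays could not be separated from background, since no background measure was used.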
